A study of Caenorhabditis elegans with 10 samples.

Results

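Alternative first exonic bins are pieces of exon at which some, but not all, of a gene's annotated transcripts begin. The authors' annotation cuts the exons of each gene into bins wherever the exon boundaries of its transcripts differ. A bin was taken when it was 25 bases or longer, lay in a gene that was not merged with another and had 2 or more transcripts, was absent from at least 1 of those transcripts, and was the most 5' bin of at least 1 of them. This gave 3295 bins in 2137 genes, out of 108516 bins in 13374 gene units, and 4412 unmerged genes had 2 or more transcripts. The rule itself uses no measured value, but it was set with earlier results of these data known.

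The libraries were made from entire L1 larvae, the first larval stage, of the wild-type N2 strain of Caenorhabditis elegans. The starved group (n = 3) had been in L1 arrest for about 12 h without food, and the fed groups were collected 1 h (n = 2), 3 h (n = 2) and 6 h (n = 3) after HB101 bacteria were added at 25 mg/mL at 20 °C. All groups share the N2 genotype. Unfed larvae of matched age were not analysed here, and a difference from the starved group therefore holds the effects of food and of elapsed time together. The design text speaks of biological replicates without naming separate cultures. The p-values thus measure the spread between these libraries, which may be technical.

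A gene can be transcribed from more than 1 promoter, and each promoter gives its transcripts a first exon of their own. An alternative first exon may change the start of the protein, or only the 5' untranslated region, which affects how well a messenger RNA is translated and how stable it is. In C. elegans many messenger RNAs also receive a spliced leader, a short RNA joined to their 5' end by trans-splicing, which removes the sequence ahead of the splice site. Alternative promoters in the worm are known for giving 1 gene different expression in different tissues or stages.

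The share of a bin is its read count as a percentage of the summed counts of all bins of its gene in the same library. Where a read covers more than 1 bin, each of those bins counts it. Relative use is the log2 change of a bin's count set against the average change of the bins of its gene, tested with edgeR. A bin was called when its adjusted p was under 0.05 after Benjamini-Hochberg adjustment over all 82149 bins tested. Because a bin's share depends on the other bins, a share can rise while the bin's own level does not. In whole animals, fewer cells of a type and less RNA per cell cannot be told apart.

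Of the 2137 genes, 1351 had 1 alternative first bin, 550 had 2, 155 had 3 and 81 had 4 or more, up to 9 in 2 genes. The bins had a median length of 91 bases (quartiles 55 and 156, range 25 to 5597). They were spread over all 6 chromosomes, with 519 on III to 591 on V. In 1802 bins the transcripts that start there were annotated with a protein of their own, in 1375 they shared the protein of another transcript, and in 118 some did and some did not. The bin was the most 5' bin of its gene in 1898 cases and lay downstream of another bin in 1397. A total of 1481 bins touched no other bin, 1402 ran straight into the next bin downstream and 412 touched only an upstream bin. Besides starting transcripts, 735 bins also lay inside other transcripts, so their reads do not all come from the start. The length limit left out 2884 shorter bins that met the rest of the rule. The median share was 0.301% for the 45 bins of 24 bases, just outside it, and 0.244% for the 36 bins of 25 bases.

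Alternative first bins held little of the RNA. Together they took 0.806% to 1.05% of the counts in a library, with 19163997 to 38607167 counts per library. The filter on low counts left 1849 of the 3295 bins (56.1%), in 1318 genes. Of the 1446 others, 150 had 0 counts in every library, and none of the 1446 averaged more than 7.9 counts per library. The median mean count was 25.7 in the tested bins and 1.45 in the untested ones. Among the tested bins the median share was 2.15% (quartiles 0.908% and 4.94%), whereas the median bin made up 5.45% of its gene's length. Only 307 tested bins (16.6%) had a share above their share of the gene's length, against 29.7% of the first bins of single-transcript genes. A mean share over 10% was found in 169 tested bins and one under 1% in 501.

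Few alternative first bins passed the test after feeding. At 1 h, 11 of 1849 bins (0.595%) were called, 10 higher and 1 lower. Of all bins tested in that comparison 0.0755% were called, 0.045% higher and 0.0304% lower. At 3 h, 11 bins (0.595%) were called, 9 higher and 2 lower, against 0.056% of all bins (0.0304% higher and 0.0256% lower). At 6 h, 26 bins (1.41%) were called, 20 higher and 6 lower, against 0.187% of all bins (0.0962% higher and 0.0913% lower). At an unadjusted p under 0.05 the alternative first bins numbered 200 (10.8%), 168 (9.09%) and 297 (16.1%) at 1 h, 3 h and 6 h, where all bins had 3.34%, 2.3% and 5.14%. Those with higher relative use numbered 129, 108 and 201 and those with lower 71, 60 and 96. Over all bins the higher ones made up 2.05%, 1.24% and 2.89% and the lower ones 1.29%, 1.06% and 2.25%. Alternative internal bins, which some transcripts lack and no transcript starts or ends with, were also above all bins. Of 5534 such bins 0.398%, 0.307% and 0.904% were called, and 7.03%, 5.75% and 9.67% had an unadjusted p under 0.05. A raised percentage was thus not particular to alternative first bins. First bins of single-transcript genes lay near all bins. Of 5572 such bins 0.0538%, 0.0359% and 0.126% were called, and 3.57%, 2.39% and 5.53% had an unadjusted p under 0.05. All 3 comparisons use the same starved libraries.

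The median relative use of the tested alternative first bins was 0.08 at 1 h, 0.16 at 3 h and 0.16 at 6 h on the log2 scale. Over all bins it was 0.03, 0.01 and 0.02. First bins of single-transcript genes, which have no annotated alternative start, had medians of 0.06, 0.12 and 0.14, and alternative last bins 0.11, -0.18 and -0.22. Coverage of gene starts was measured beside these medians. The median log2 ratio of first to last bin over 2761 single-transcript genes was -2.41 to -1.73 in the starved libraries, -2.01 to -1.99 at 1 h, -1.86 to -1.82 at 3 h and -1.92 to -1.59 at 6 h. Starved replicates 1 and 2 (-2.41 and -2.18) lay below every fed library. Starved replicate 3 (-1.73) lay above the 1 h and 3 h libraries and within the 6 h range. The part of this coverage in the bin results was not tested.

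**Figure D1:**
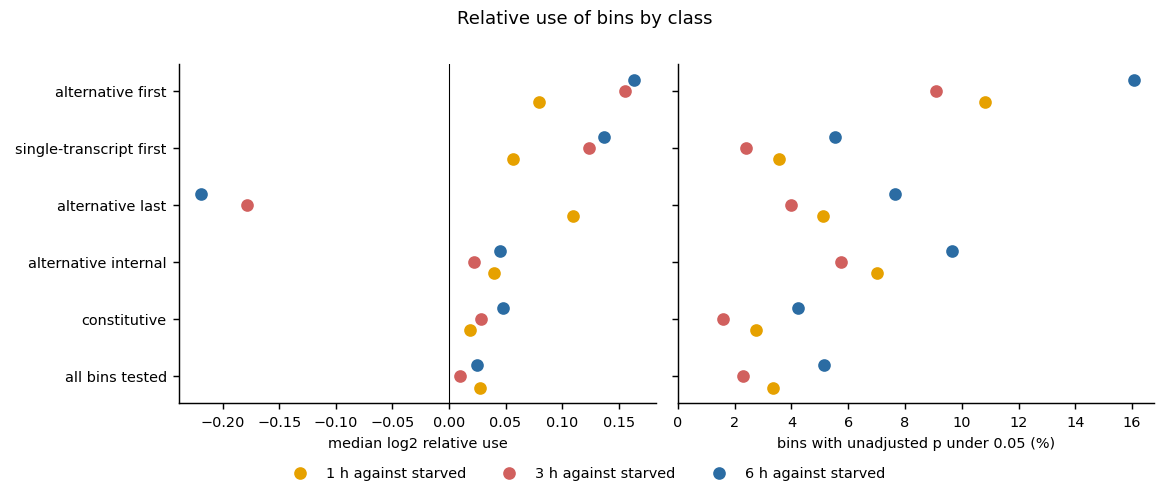
Median log2 relative use (left) and percentage of bins with an unadjusted p under 0.05 (right) for each class of bin, with colours for 1 h, 3 h and 6 h against starved. First bins of multi-transcript genes (alternative first) have positive medians close to those of single-transcript genes, but their percentage under 0.05 reaches 16.1% at 6 h. That of alternative internal bins reaches 9.67%, that of alternative last bins 7.64% and that of single-transcript first bins 5.53%.

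Several traits of the bins were set beside the calls. Of the most 5' bins, 932 were tested and 4, 2 and 12 were called at 1 h, 3 h and 6 h (0.429%, 0.215% and 1.29%). Of the downstream bins, 917 were tested and 7, 9 and 14 were called (0.763%, 0.981% and 1.53%). Bins whose transcripts have a protein of their own gave 5, 7 and 16 calls out of 1048 (0.477%, 0.668% and 1.53%). Bins with a shared protein gave 6, 4 and 10 out of 710 (0.845%, 0.563% and 1.41%). The differences between these classes were not tested. In all, 29 bins in 29 genes were called in at least 1 comparison with starved larvae, and no such count over all bins is given here. The median length of the 29 bins was 119 bases, and 22 of them only start transcripts, as do 1254 of the 1849 tested bins. A mean share under 5% in every group was found in 23 of them, where the upper quartile over all tested bins was 4.94%. Most called bins thus held a small part of their gene's reads, as did most tested bins.

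**Figure D2:**
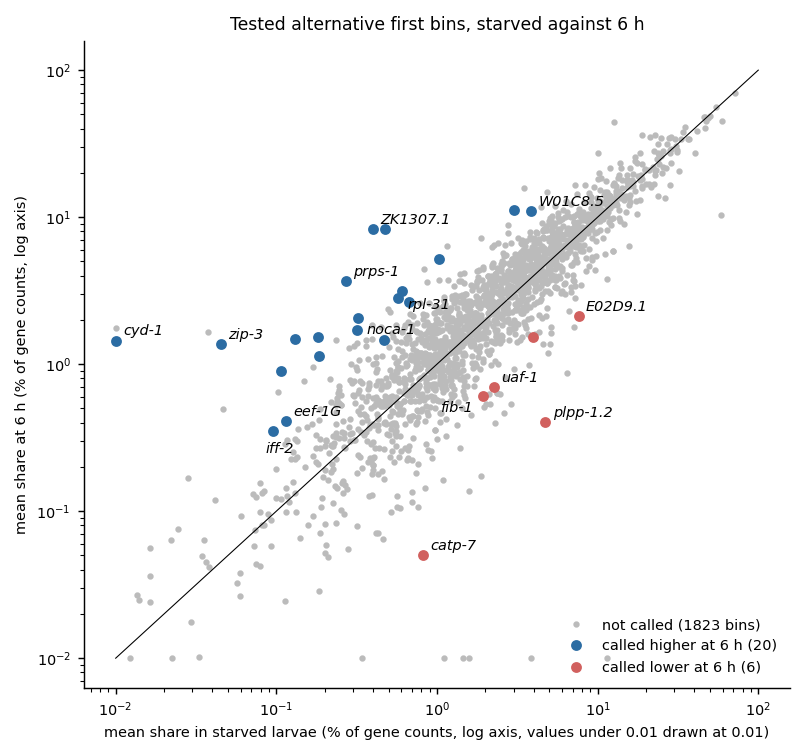
Mean share of gene counts of each tested alternative first bin in starved larvae (horizontal) and at 6 h (vertical), both on log axes, with the line of equal share. The 20 bins called higher lie above the line and the 6 called lower lie below it, and most of them have starved shares under 5%, as do most tested bins.

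The called bins are given in the order of what their genes are known to do. This order was made after the calls, and no theme among the genes was tested. The naming rule takes only bins whose shares do not overlap between the groups compared. For bins named by it, a lack of overlap in the called comparison is thus no separate finding. Among all called bins the groups did not overlap in 11 of 11 at 1 h, 11 of 11 at 3 h and 25 of 26 at 6 h. No such count over all bins tested is given here. rpl-31 encodes a protein of the large ribosomal subunit. Its called bin of 119 bases (chromosome I, 13653363 to 13653481, minus strand, WS210) is the start of transcript W09C5.6b.1, which shares its protein with other transcripts. The bin's share was 0.843%, 0.253% and 0.63% in the starved libraries, 5.34% and 3.07% at 1 h, 4.69% and 4.48% at 3 h, then 2.34%, 3.39% and 2.71% at 6 h. Every fed library was above every starved one. The log2 relative use was 3.03, 3.11 and 2.41 (edgeR, adjusted p = 1.56e-06, 8.39e-07 and 8.1e-05). A second stretch of 56 bases that belongs to the same transcript alone went from a mean share of 0.346% to 3.12%, 1.70% and 1.41%, and was itself called at each time (edgeR, adjusted p = 2.36e-07, 0.00129 and 0.000775). The gene's main starts lie upstream: bins of 47 and 33 bases there held 15.6% and 15.1% of the counts in starved larvae and 13.5% and 13.8% at 6 h.

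iff-2 encodes the translation factor eIF5A, and its most 5' bin (chromosome II, 8561214 to 8561283, minus strand) has 70 bases. The share was 0.0778%, 0.131% and 0.0771% in starved larvae, 0.299% and 0.452% at 1 h, 0.453% and 0.302% at 3 h, then 0.33%, 0.376% and 0.345% at 6 h. These small shares do not overlap between starved and fed libraries and rest on 20 to 162 counts. The log2 relative use was 1.95, 1.97 and 1.87 (edgeR, adjusted p = 0.00463, 0.00626 and 0.00121). The worm has a close paralogue, iff-1, and the sources used here do not say how reads shared between the pair were counted.

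fib-1 encodes fibrillarin, the methyltransferase of small nucleolar RNA particles that modify ribosomal RNA. Its most 5' bin of 170 bases (chromosome V, 15002003 to 15002172, minus strand) starts transcript T01C3.7.2, which shares the protein of the other transcripts. The share was 2.23%, 1.95% and 1.65% in starved larvae, 2% and 2.63% at 1 h, 0.66% and 0.726% at 3 h, then 0.614%, 0.54% and 0.676% at 6 h. The starved and 1 h libraries stand together above the later ones. Relative use fell at 6 h by 1.70 on the log2 scale (edgeR, adjusted p = 0.00545), and was not called at 1 h or 3 h (edgeR, adjusted p = 1 and 0.278). The level of the bin did not fall: its mean was 3.53, 21.2, 11 and 9.04 CPM (counts scaled to a common library size) in the 4 groups in order, while the gene went from 182 to 925, 1585 and 1505 CPM.

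Another bin in a translation gene, chosen after its values were seen, was the most 5' bin of eef-1G, which encodes a subunit of elongation factor 1. Its share was 0.115% ± 0.023 (SD, n = 3) in starved larvae and 0.409% ± 0.097 (n = 3) at 6 h, with no overlap, and it was called at 6 h alone (edgeR, log2 relative use 1.80, adjusted p = 0.000693).

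The next 5 genes encode enzymes of metabolism or members of enzyme families. prps-1 (R151.2) encodes phosphoribosyl pyrophosphate synthetase, which makes the sugar phosphate used to build nucleotides. It has 9 transcripts and 6 alternative first bins, and the called one, of 117 bases (chromosome III, 7212461 to 7212577, plus strand), starts transcript R151.2a with a protein of its own. In starved larvae the share of this bin was 0.169%, 0.427% and 0.213%. It was 3.6% and 3.66% at 1 h, 3.74% and 5% at 3 h, then 3.1%, 1.52% and 6.34% at 6 h. All fed libraries were above all starved ones, with the widest spread at 6 h. The log2 relative use was 3.61, 3.88 and 3.60 (edgeR, adjusted p = 2.1e-08, 5.22e-10 and 2.27e-09). The bin held 5 to 20 counts in starved libraries and up to 484 in fed ones. An upstream first bin of 138 bases, which begins transcript R151.2b.3 and lies inside 4 others, had shares of 4.71%, 10.8% and 12.2% in starved larvae and 3.77% and 3.78% at 1 h, and was not called (edgeR, log2 relative use -1.29, adjusted p = 0.253). In the authors' deposited table, transcript R151.2a had 4.23 FPKM in starved larvae and 166, 142.05 and 86.6 FPKM at 1 h, 3 h and 6 h.

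**Figure D3:**
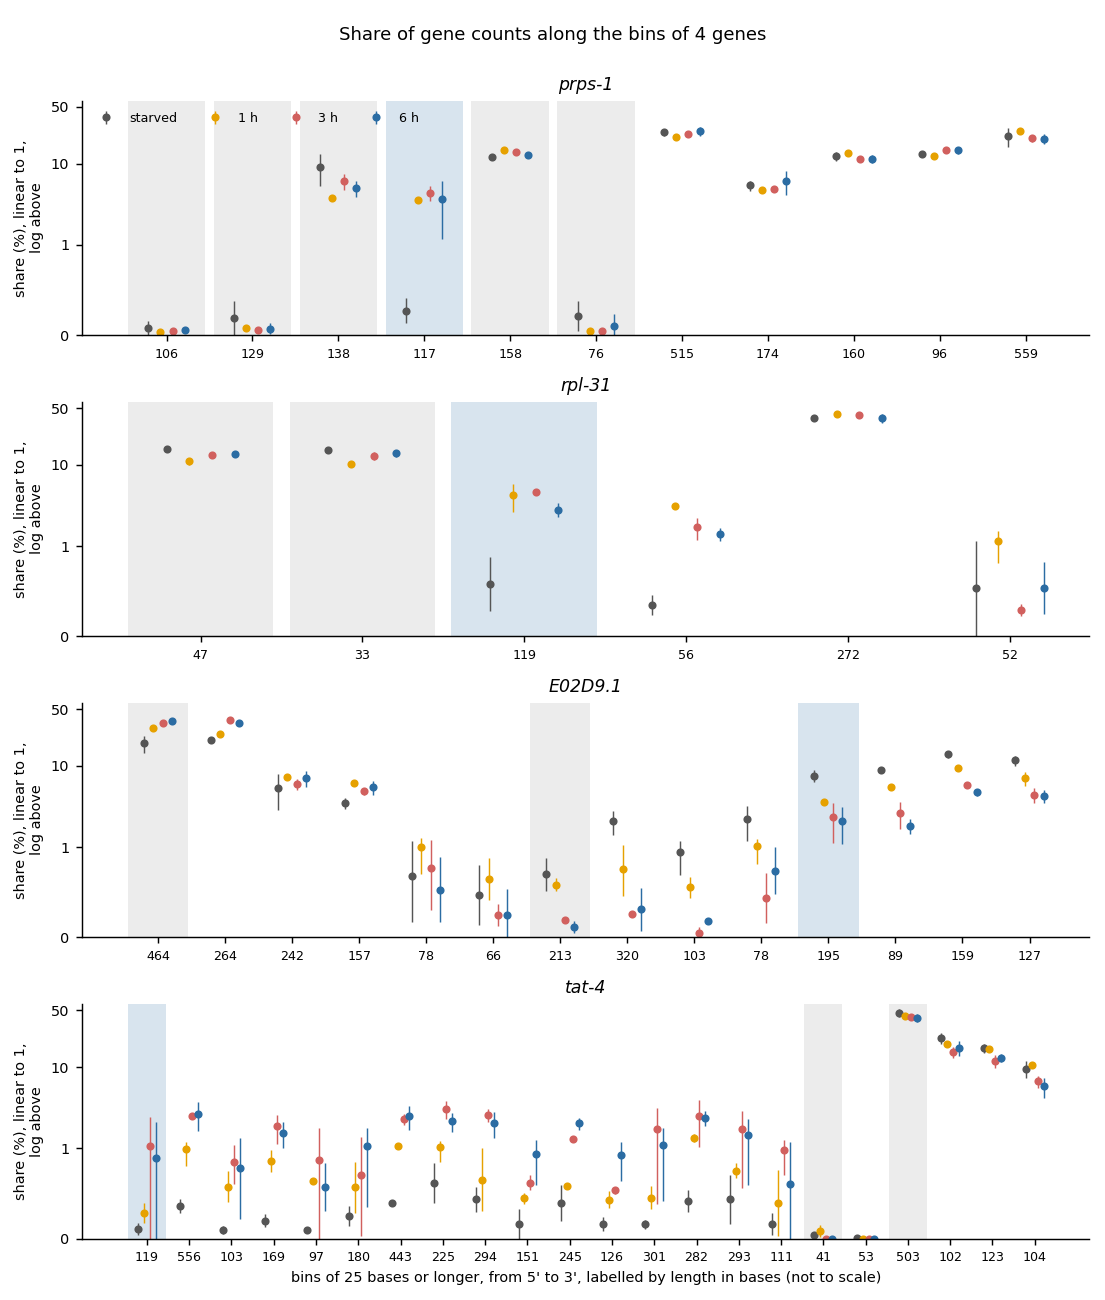
Mean share (± SD) of each bin of 25 bases or longer along prps-1, rpl-31, E02D9.1 and tat-4 from 5' to 3', in starved larvae and at 1 h, 3 h and 6 h, on an axis that is linear to 1% and logarithmic above. Blue shading marks the called alternative first bin and grey the other alternative first bins: in prps-1 the shaded bin rises from 0.270% to 3.66% at 6 h, and in E02D9.1 the shaded bin and those after it are lower in fed larvae.

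gpcp-2 encodes a protein of the glycerophosphocholine phosphodiesterase family, which breaks down lipid head groups. Its called bin of 218 bases (chromosome II, 8073074 to 8073291, minus strand) starts transcript T05H10.7b.1 and is also part of T05H10.7a. The share was 0.265%, 0.245% and 0.461% in starved larvae, 3.59% and 3.61% at 1 h, 2.76% and 3.3% at 3 h, then 1.49%, 1.94% and 2.72% at 6 h. The 1 h libraries were the highest, and no fed library overlapped a starved one. The log2 relative use was 3.48, 3.23 and 2.69 (edgeR, adjusted p = 1.29e-07, 2.32e-06 and 8.1e-05). A bin of 154 bases further downstream, which is part of every transcript and the start of T05H10.7b.3, held 5.98% ± 2.96 (SD, n = 3) in starved larvae and 6.04% ± 1.31 (n = 3) at 6 h.

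sptl-2 encodes a subunit of serine palmitoyltransferase, the first enzyme of sphingolipid synthesis, and each of its 2 transcripts has a first bin of its own. The downstream bin of 114 bases (chromosome V, 8019077 to 8019190, plus strand) had shares of 2.05%, 1.21% and 0.856% in starved larvae, 4.81% and 4.63% at 1 h, 3.3% and 3.42% at 3 h, then 2.51%, 4.75% and 3.8% at 6 h. Starved and fed libraries did not overlap, and the bin was called higher at 1 h (edgeR, log2 relative use 1.77, adjusted p = 0.0261) but not at 3 h or 6 h (adjusted p = 0.865 and 0.0958). The upstream bin of 131 bases went the other way without a call, from 3.58% ± 0.93 (SD, n = 3) in starved larvae to 0.952% ± 0.30 (n = 2) at 1 h (edgeR, adjusted p = 0.0913).

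pnk-1 encodes pantothenate kinase, the first enzyme of coenzyme A synthesis. Its most 5' bin of 171 bases (chromosome I, 6294898 to 6295068, plus strand) had shares of 0.478%, 0.568% and 0.36% in starved larvae and 1.65% and 1.88% at 1 h (edgeR, log2 relative use 1.93, adjusted p = 0.0361). At 3 h they were 1.45% and 1.43%, without a call (edgeR, adjusted p = 0.451). At 6 h the shares were 2.03%, 0.59% and 1.78%, with 1 library just above the starved range (edgeR, log2 relative use 1.73, adjusted p = 0.0448). The level of the bin was 1.81 CPM in starved larvae and 1.76 CPM at 1 h, while the gene as a whole went from 392 to 99.98 CPM.

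plpp-1.2 encodes a phospholipid phosphatase. Its most 5' bin of 115 bases (chromosome II, 6485628 to 6485742, plus strand), which starts a transcript with a protein of its own, had shares of 4.17%, 7.19% and 2.85% in starved larvae. The shares were 1.03% and 0.39% at 1 h, 0.822% and 0.546% at 3 h, then 0.441%, 0% and 0.769% at 6 h, where the 0 counts of 1 library allow a share of up to 0.33%. Such limits take 3 counts of the gene's total and cover counting error only. All fed libraries were below all starved ones, yet the bin was called at 6 h alone (edgeR, log2 relative use -3.33, adjusted p = 0.00663), with adjusted p = 0.345 and 0.452 at 1 h and 3 h. Its neighbours of 34 and 153 bases, which start other transcripts, had log2 relative use of 1.08 and 0.80 at 6 h and were not called.

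zip-3 encodes a bZIP transcription factor, and its most 5' bin has 141 bases (chromosome II, 13957287 to 13957427, minus strand). It held 0, 0 and 1 counts in the starved libraries, where 0 counts allow shares of up to 0.441% and 0.269%, and 19 and 35 counts at 1 h, 15 and 14 at 3 h, then 5, 26 and 16 at 6 h. The shares were 1.4% and 2.23% at 1 h, 1.78% and 1.34% at 3 h, then 0.527%, 2.45% and 1.14% at 6 h. The bin was called higher at each time (edgeR, adjusted p = 0.00463, 0.017 and 0.00577), and with 1 starved count in all, the size of the fitted change is not given.

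cyd-1 encodes cyclin D, which drives cells into the division cycle. Its most 5' bin of 148 bases (chromosome II, 12980500 to 12980647, plus strand) starts 1 of 2 transcripts that share a protein. The bin had 0 counts in each starved library and at 1 h, 3 and 1 counts at 3 h, then 10, 22 and 25 counts at 6 h. The shares at 6 h were 1.1%, 1.8% and 1.43%, and 0 counts allow 0.417%, 0.204% and 0.322% in the starved libraries. With 3 counts assumed in each starved library, the mean share at 6 h was at least 4.59-fold higher (edgeR, adjusted p = 0.000402). The following exon of the same transcript, of 83 bases, went from 0.0226% ± 0.039 (SD, n = 3) to 2.56% ± 0.072 (n = 3) and was also called (edgeR, adjusted p = 6.67e-05). In the same span the gene went from 36.1 to 62.5 CPM. The authors' deposited table does not separate this start: transcript Y38F1A.5.1 had 48.3% of the gene's FPKM in starved larvae and 47.0% at 6 h.

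noca-1 encodes a protein that organises microtubules away from centrosomes. Its most 5' bin of 297 bases (chromosome V, 13155281 to 13155577, plus strand) starts transcript T09E8.1c, with a protein of its own. The share was 0.191%, 0.29% and 0.478% in starved larvae, 0.318% and 0.404% at 1 h, 1.08% and 1.03% at 3 h, then 1.73%, 1.63% and 1.76% at 6 h. Starved and 1 h libraries overlap, and the 6 h libraries lie above all others. The bin was called at 6 h (edgeR, log2 relative use 2.45, adjusted p = 0.000294), and the next exon of the same transcript, of 478 bases, was called with it, with means of 0.587% and 2.31% (edgeR, adjusted p = 0.002).

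pkg-2 encodes a cGMP-dependent protein kinase and has 8 transcripts. The called bin of 133 bases (chromosome IV, 8522586 to 8522718, plus strand) starts transcript C09G4.2a. It held 6, 1 and 3 counts in the starved libraries and 7 to 18 in the fed ones. The shares were 0.221%, 0.0227% and 0.145% in starved larvae, 1.12% and 1.18% at 1 h, 1.07% and 1.84% at 3 h, then 2.03%, 1.65% and 0.799% at 6 h, without overlap. The log2 relative use was 3.24, 3.61 and 3.58 (edgeR, adjusted p = 0.0412, 0.0134 and 0.00141), while the gene's level went from 104.3 to 40.6 CPM at 6 h. The rise was not confined to this bin. The most 5' bin of 175 bases, which starts C09G4.2c, had mean shares of 0.958%, 2.81%, 1.83% and 2.25% in time order and was not called. Bins of 167, 114 and 239 bases, which belong to both transcripts, were called higher at 6 h (edgeR, adjusted p = 0.00052, 0.0226 and 0.00877).

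catp-7 encodes a cation-transporting P-type ATPase. Its called bin of 33 bases (chromosome IV, 8585965 to 8585997, plus strand) had 5, 75 and 22 counts in the starved libraries, 0 and 1 at 1 h, 0 and 1 at 3 h, then 2, 0 and 0 at 6 h. The bin starts transcript Y59H11AR.2d and is part of 3 of the gene's 5 transcripts, so its reads need not come from that start. In the authors' deposited table Y59H11AR.2d had 43.4%, 50.3%, 32.1% and 31.4% of the gene's FPKM in time order. The starved shares of 0.166%, 1.45% and 0.835% were all above the fed ones, which reached at most 0.15%, and 0 counts allow 0.128% to 0.193%. The bin was called lower at each time (edgeR, adjusted p = 0.0164, 0.047 and 0.00177). The starved libraries differ widely here, and the lowest of them is close to the highest fed one.

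lec-3 encodes a galectin, a sugar-binding protein. Its called bin of 274 bases (chromosome II, 9993583 to 9993856, plus strand) had shares of 3.69%, 2.07% and 6.12% in starved larvae, 2.02% and 2.95% at 1 h, 1.92% and 2.2% at 3 h, then 1.37%, 1.48% and 1.73% at 6 h. The starved range overlaps those at 1 h and 3 h, and the bin was called lower at 6 h (edgeR, log2 relative use -1.33, adjusted p = 0.034). It starts transcript ZK892.1e and is part of 2 of the gene's 5 transcripts. uaf-1 encodes the large subunit of U2AF, which recognises 3' splice sites. Its bin of 31 bases (chromosome III, 1068024 to 1068054, minus strand) had shares of 2.86%, 1.3% and 2.64% in starved larvae, 1.32% and 1.34% at 1 h, 0.973% and 0.898% at 3 h, then 0.605%, 0.642% and 0.85% at 6 h. The 6 h libraries lie below all the others, and the bin was called lower at 6 h (edgeR, log2 relative use -1.62, adjusted p = 0.0405).

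dhhc-4 belongs to the family of palmitoyltransferases, which attach a fatty acid to proteins. Its called bin of 174 bases (chromosome III, 9867048 to 9867221, minus strand) had shares of 0.657%, 0.371% and 0.78% in starved larvae, 1.1% and 0.804% at 1 h, 1.31% and 1.53% at 3 h, then 1.71%, 3.49% and 4.24% at 6 h. The values at 6 h were the highest, and the call was made at 6 h (edgeR, log2 relative use 2.39, adjusted p = 0.0201). lad-2 encodes a neuronal adhesion protein of the L1CAM family. Its most 5' bin of 63 bases (chromosome IV, 2978396 to 2978458, minus strand) held 1, 1 and 2 counts in starved larvae, 11 and 22 at 1 h, 5 and 11 at 3 h, then 20, 16 and 6 at 6 h. The share went from 0.182% ± 0.14 (SD, n = 3) to 1.54% ± 0.72 (n = 3) at 6 h without overlap (edgeR, adjusted p = 0.0448). Bins of 75 and 93 bases that belong to the same transcript alone were not tested. Their mean shares were 0% in every group, except 0.0467% at 6 h in the bin of 75 bases.

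The remaining bins that the naming rule gives lie in genes whose function is left unstated here. taap-1 had a most 5' bin of 88 bases (chromosome II, 8483716 to 8483803, minus strand) that held 2, 2 and 3 counts in starved larvae, 50 and 39 at 1 h, 5 and 2 at 3 h, then 4, 0 and 4 at 6 h. The shares at 1 h, 2.28% and 1.75%, were above those of all other libraries, which reached at most 0.507% (edgeR, log2 relative use 3.45, adjusted p = 0.0464 at 1 h, and adjusted p = 1 at 3 h and 6 h). The authors' deposited table lists transcript M05D6.6.3, which starts there, at 0.773, 23.6, 1.43 and 0.493 FPKM in time order.

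nssp-89 had a most 5' bin of 250 bases (chromosome X, 15959019 to 15959268, plus strand) with shares of 1.09%, 2.81% and 5.16% in starved larvae. The shares were 10.5% and 5.07% at 1 h, 10.1% and 12.9% at 3 h, then 11.7%, 10.1% and 12% at 6 h. The 1 h libraries overlap the starved ones, and the bin was called at 6 h (edgeR, log2 relative use 1.84, adjusted p = 0.0445).

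**Figure D4:**
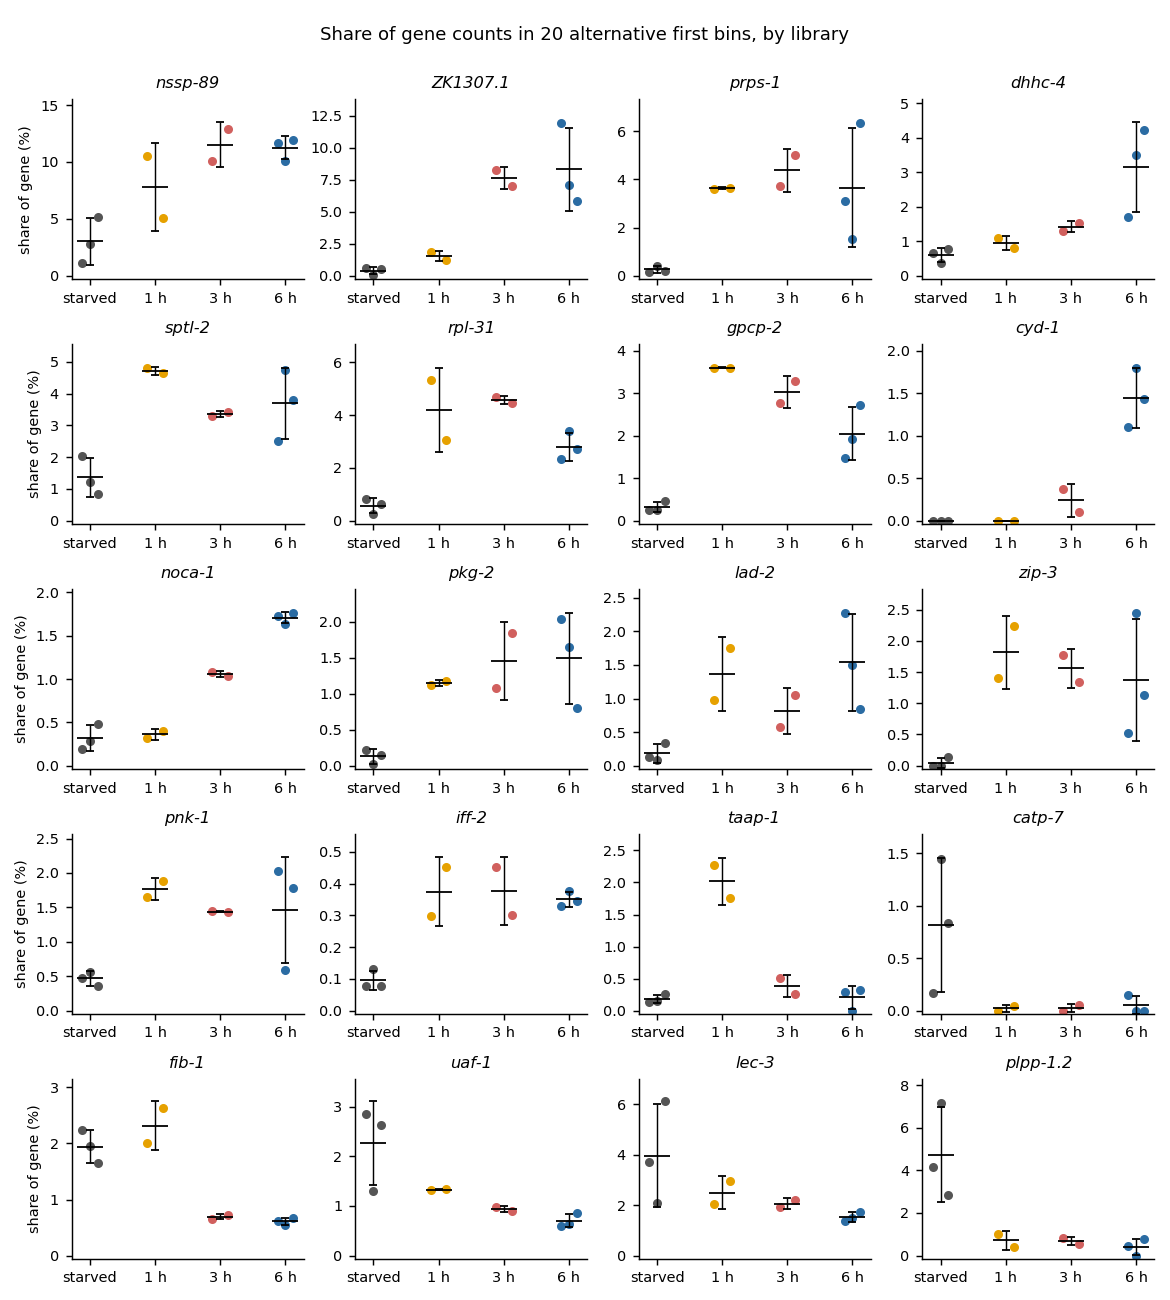
Share of gene counts in 20 called alternative first bins, with 1 point per library and the mean ± SD in black for starved larvae and 1 h, 3 h and 6 h after feeding. Bins such as prps-1 and gpcp-2 are already high at 1 h, cyd-1, noca-1 and dhhc-4 are highest at 6 h, taap-1 is high at 1 h alone, and fib-1, uaf-1, lec-3, plpp-1.2 and catp-7 are lower at 6 h than in starved larvae.

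The other called bins fall outside the naming rule and were chosen after their values were seen, most of them because the gene has no symbol. The bin with the smallest adjusted p lay in ZK1307.1 (76 bases, chromosome II, 9655446 to 9655521, minus strand). It starts transcript ZK1307.1a and is part of 2 of the gene's 3 transcripts. Its share was 0.577%, 0.0618% and 0.567% in starved larvae, 1.85% and 1.26% at 1 h, 8.25% and 7.03% at 3 h, then 12%, 7.14% and 5.86% at 6 h. It rose at 3 h and 6 h (edgeR, log2 relative use 4.45 and 4.56, adjusted p = 5.82e-11 and 2.35e-12), with 1 to 5 counts in starved libraries and 114 to 259 at those times. Bins of 84 and 311 bases that belong to the same transcripts did not rise with it and were not called. Their mean shares were 28.9% and 29.7% in starved larvae, 22.8% and 24.25% at 3 h, then 20.2% and 22.2% at 6 h. In the authors' deposited table ZK1307.1a had 13.2%, 26.2%, 5.00% and 37.5% of the gene's FPKM in time order. The T04F8.7 bin of 67 bases had mean shares of 1.03%, 2.64%, 6.88% and 5.21% in time order and was called higher at 3 h and 6 h (edgeR, adjusted p = 0.00623 and 0.00577). The K09A9.6 bin of 211 bases had 0.711%, 3.60%, 3.40% and 2.14% and was called higher at 1 h and 3 h but not at 6 h (edgeR, adjusted p = 0.0104, 0.0242 and 0.263).

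In the 5 other genes outside the rule the call was made at 6 h alone. The W01C8.5 bin of 402 bases had shares of 4.24%, 3.59% and 3.76% in starved larvae and 10.5%, 12.6% and 9.87% at 6 h (edgeR, log2 relative use 1.51, adjusted p = 0.00394). The F37C4.4 bin of 139 bases, which is part of 2 of 3 transcripts, had 0.477% ± 0.60 (SD, n = 3) and 8.28% ± 2.94 (n = 3) (edgeR, adjusted p = 0.00251). The gene's lowest library, a starved one with 0 counts in the bin, had 188 counts and allows up to 1.60%. The Y41E3.7 bin of 70 bases, which is part of 7 of 11 transcripts, had 0.925%, 0.431% and 0.652% in starved larvae and 3.66%, 3.17% and 1.17% at 6 h (edgeR, adjusted p = 0.0403). In each of these 3 genes the 6 h libraries lay above the starved ones. let-805 encodes myotactin, which takes part in the attachment of muscle through the epidermis. Its called bin lies 18326 bases from the gene's start and had shares of 0.238%, 0.0569% and 0.258% in starved larvae and 0.999%, 0.831% and 1.56% at 6 h (edgeR, adjusted p = 0.0285). No inner bin of the same transcript was called at 6 h. Those of 109 and 501 bases had higher mean shares than in starved larvae, and those of 149, 113, 97 and 102 bases lower ones. tat-4 belongs to the P4-ATPase family, whose members move lipids between the faces of a membrane. The first bin of the gene, of 119 bases, had shares of 0.0336%, 0.168% and 0.121% in starved larvae and 0%, 2.31% and 0.371% at 6 h, from 0, 17 and 3 counts, where 0 counts allow up to 0.43%. These groups overlap, although the bin was called (edgeR, adjusted p = 0.0448).

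E02D9.1 is a gene in which several neighbouring bins were called together. Its called first bin of 195 bases (chromosome I, 6803699 to 6803893, plus strand) overlaps a bin on the other strand and is both the start of transcript E02D9.1d and an inner exon of E02D9.1a. The share was 7.89%, 6.28% and 8.65% in starved larvae, 3.5% and 3.67% at 1 h, 3.19% and 1.47% at 3 h, then 3.27%, 1.46% and 1.6% at 6 h. Starved libraries were above all fed ones, and the bin was called lower at 3 h and 6 h (edgeR, log2 relative use -1.75 and -1.87, adjusted p = 0.0257 and 0.000433). The 3 bins that follow, which belong to the same 2 transcripts (89, 159 and 127 bases) were also called lower at 6 h (edgeR, adjusted p = 4.14e-06, 0.00174 and 0.00545). The upstream first bin of 464 bases, where transcript E02D9.1b.3 starts, went from 18.9% ± 4.4 (SD, n = 3) to 36.1% ± 1.3 (n = 3) at 6 h and was not called (edgeR, adjusted p = 0.235).

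The level of a called bin and the level of its gene moved in several combinations. Of the 20 bins with a higher share at 6 h, 18 also had a CPM above that of every starved library, and the CPM of pnk-1 and tat-4 overlapped the starved range. The genes of these 20 bins were above every starved library in 10 cases, below in 5 and overlapping in 5. In tat-4 the bin stayed at 0.293 CPM in starved larvae and 0.297 CPM at 6 h, while the gene went from 264 to 36.2 CPM. Of the 6 bins with a lower share, 5 had a CPM below every starved library, and the fib-1 bin had a CPM above every starved library in a gene whose level went up further. At 1 h, 9 of the 10 bins with a higher share had a CPM above every starved library, and at 3 h all 9 did. These comparisons of CPM are descriptions and rest on library totals scaled by TMM factors. The bins were picked by their change against their gene, and the same counts were not made over all bins tested. Nothing is therefore read from how many bins or genes lay outside the starved range.

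**Figure D5:**
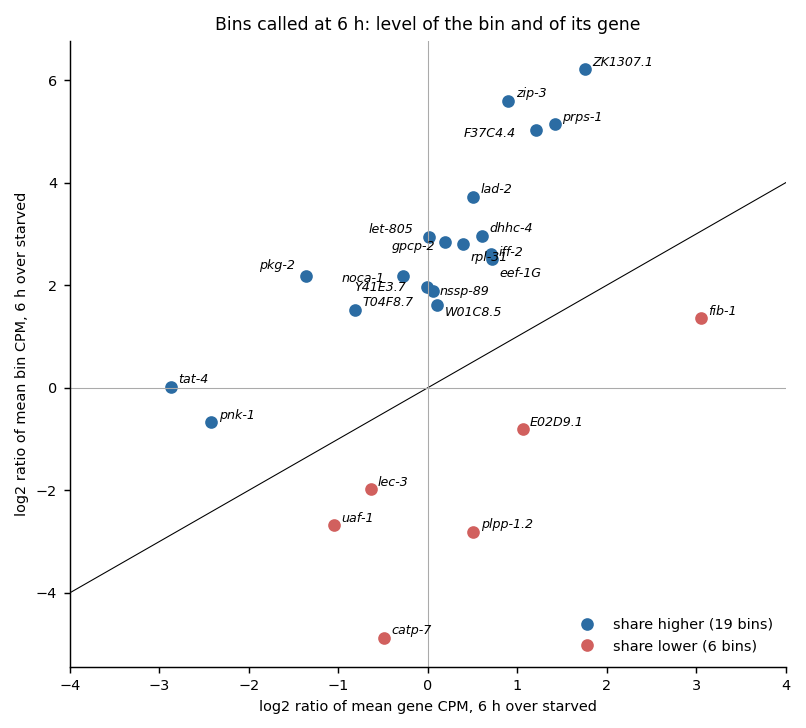
Log2 ratio of mean CPM, 6 h over starved, of each bin called at 6 h (vertical) against that of its gene (horizontal), with the line where they are equal. Bins with a higher share lie above the line and those with a lower share below it. tat-4 and pnk-1 lie near or below 0 on the vertical axis although their share was higher, and cyd-1, with 0 counts in starved larvae, is not drawn.

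Exons that belong to exactly the same transcripts as a called first bin were examined beside it. They may share reads with it and are not independent of it. At 6 h there were 31 such inner bins, in 10 genes. Their share moved in the direction of the first bin in 26 of them, and 13 were called, all in the same direction, in E02D9.1, cyd-1, noca-1, rpl-31 and tat-4. Over all bins tested 0.187% were called at 6 h, and no background is given for the directions. The inner bins that moved the other way lay in let-805 and ZK1307.1. The inner bin of lad-2 was not tested, with mean shares of 0% in starved larvae and 0.0467% at 6 h. tat-4 alone held 14 of the 31 and 8 of the 13 calls, whereas its first bin rested on few counts. Of 11 last bins of the same transcripts, 4 moved with the first bin and 1, in E02D9.1, was called.

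The authors' deposited table of transcript FPKM, which gives 1 value per time point, was set beside the shares. The transcript that starts at a called bin changed its percentage of the gene's FPKM in the direction of the bin in 10 of 11 cases at 1 h, 10 of 11 at 3 h and 21 of 26 at 6 h. These estimates come from the same reads. In the authors' deposited table T05H10.7b.1 of gpcp-2 had 0.472 FPKM in starved larvae and 28.6 at 1 h, or 1.65% and 29.3% of the gene's FPKM. For sptl-2 the same table gives F43H9.2a 10.9 and 123 FPKM, but F43H9.2b also went from 9.30 to 74.8 FPKM, so that the percentage of F43H9.2a went from 53.9% to 62.3%. Among the transcripts that went against their bin at 6 h in the authors' deposited table, that of noca-1 had 44.7% of the gene's FPKM in starved larvae and 42.1% at 6 h, that of let-805 63.5% and 59.6%, and that of nssp-89 17.6% and 17.1%. The uaf-1 transcript Y92C3B.2b.2 is listed at 0 FPKM at every time in the authors' deposited table, although its first bin held 24 to 297 counts.

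A switch from 1 start to another would show as first bins of 1 gene called in opposite directions. Among 386 genes with 2 or more tested alternative first bins, 0 had such a pair by edgeR's adjusted p in any comparison. At an unadjusted p under 0.05, 8, 9 and 16 genes had one at 1 h, 3 h and 6 h, and those at 6 h included prps-1, sptl-2, plpp-1.2 and E02D9.1. limma's diffSplice on voom weights gave 0, 0 and 1 gene by adjusted p, the last being E02D9.1. In 188 of the 386 genes the bin with the most counts per base was the same in all 10 libraries. It was the same bin in all starved libraries and a different bin in all libraries of a fed group at 1 h in 15 genes, at 3 h in 11 and at 6 h in 7. The 7 genes were T12G3.2, T13H5.1, akap-1, deb-1, let-805, lfe-2 and sptl-2. These counts have no test.

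Alternative first bins were also counted in 8 gene lists. The lists covered insulin and nutrient signalling (18 of 37 member bins tested), nuclear hormone receptors (42 of 71), protein kinase A, calcium and G protein signalling (29 of 42), muscle and cytoskeleton (40 of 56), synapse and ion channels (32 of 65), metabolic enzymes (48 of 78), splicing and RNA binding (21 of 28), and vacuolar ATPase, transport and vesicles (10 of 15). By edgeR, 0 of their bins were called at 1 h and 3 h, and at 6 h the uaf-1 bin was the only one. Over all bins tested 0.0755%, 0.056% and 0.187% were called at 1 h, 3 h and 6 h, and nothing is read from the list counts against these shares. prps-1, sptl-2 and pnk-1 are not in the list of metabolic enzymes. At an unadjusted p under 0.05 at 6 h, metabolic enzymes had 5 bins higher and 1 lower, synapse and ion channels 4 and 0, muscle and cytoskeleton 5 and 4, and nuclear hormone receptors 3 and 5. At that level 16.1% of all tested alternative first bins and 5.14% of all bins passed. Synapse and ion channel bins had median log2 relative use of 0.27, 0.36 and 0.32 at 1 h, 3 h and 6 h, the largest of the 8 list medians at each time. In the splicing list it was 0.07, 0.02 and -0.17. The summed level of 7 of 8 neuron markers was 2197 to 2898 CPM in starved larvae and 1266 to 1559 CPM at 6 h. Its part in the synapse values was not tested.

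Between fed groups, 0 alternative first bins were called by edgeR at 3 h against 1 h and 0 at 6 h against 3 h, as for all bins tested (0% called). At an unadjusted p under 0.05 there were 93 (5.03%) and 55 (2.97%), where all bins had 2.45% and 1.26%. At 3 h against 1 h, 57 were higher and 36 lower, where over all bins 1.09% were higher and 1.36% lower. At 6 h against 3 h, 21 were higher and 34 lower, where over all bins 0.638% were higher and 0.617% lower. limma's diffSplice gave 0 in both. When the 1 h and 3 h libraries were fitted alone, 30 bins were called at 3 h against 1 h, and the fit with a replicate block for barcode set called 3. The median log2 relative use was 0.05 and 0.02.

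The counts of called bins depended on the libraries and on the test. Without 1 h replicate 1 or 2 the count at 1 h went from 11 to 3, without starved replicate 2 to 4 and without either 3 h library to 7. At 3 h it went from 11 to 4 without either 3 h library, and to 7 without starved replicate 2 or 1 h replicate 2. At 6 h it was 19 to 30. The calls held in few alternatives in some genes: at 6 h, pnk-1 in 6 of 21, tat-4 in 6 of 20, uaf-1 and Y41E3.7 in 7 of 21, lec-3 in 9 of 21, lad-2 in 9 of 20, and nssp-89 and let-805 in 10 of 21. At 3 h, catp-7 held in 9 of 18 and E02D9.1 in 10 of 20, and at 1 h, taap-1 in 8 of 21 and pkg-2 in 9 of 21. A test of each bin's log ratio to the rest of its gene with limma, added after the data were seen, called 0, 0 and 1 bin, the last being cyd-1, with 234, 203 and 339 bins at an unadjusted p under 0.05.

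Markers of other cell types were checked for the label of whole larvae. Of the marker lists, 6 of 6 intestine, 3 of 5 body wall muscle, 4 of 4 pharyngeal muscle, 3 of 6 hypodermis and 4 of 4 primordial germ cell genes were in the bins. Intestine markers summed to 1723 to 2076 CPM in starved larvae and 2093 to 2922 CPM at 6 h, and hypodermis markers to 78.8 to 98.5 CPM and 212 to 270 CPM. Body wall muscle markers summed to 2714 to 4201 CPM in starved larvae and 1438 to 2076 CPM at 6 h, without overlap, and pharyngeal muscle markers to 1964 to 4118 CPM and 1387 to 2320.0 CPM, with overlap. Primordial germ cell markers summed to 44.4 to 62.8 CPM and 17.5 to 77.1 CPM. The 4 of 6 oocyte and yolk markers in the bins summed to 14.4 to 22.4 CPM in starved larvae and 5.00 to 8.81 CPM at 6 h, and 0 of 5 sperm markers were among the bins. Within the intestine list the members differed in direction: mean act-5 was 237 CPM in starved larvae and 928 CPM at 6 h, whereas ifb-2 was 1176 and 789 CPM. Their part in the changes of first bins was not tested.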

How the data were processed

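Polyadenylated RNA was decapped, fragmented and sequenced on a SOLiD instrument, per the labels' protocols. Per the submitters' processing notes, the authors used TopHat and Bowtie 0.12.7 for alignment. Reads stripped of a 22 bp SL1 or SL2 leader were included, per the labels. In the deposited files each count is of whole reads in an exonic bin from the DEXSeq counting script, on WS210 gene models, per the deposited notes. The sources used here do not say whether strand was used. The 2292 bins that overlap a bin on the other strand held 392342 to 1031103 counts per library, and 33 to 98 reads were listed as ambiguous. FPKM values per transcript were made by the authors with Cufflinks 1.0.2, 1 per time point. Reads outside bins (8.35% to 11.4%) were left out.

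Groups came from the titles. Replicate numbers follow accession order and name no shared culture, but coincide with barcode sets. Replicate libraries differed beyond sampling noise (chi-square per degree of freedom 22.1 to 119). Bins were tested with edgeR 4.0.16 (R 4.3.3): TMM (0.858 to 1.23), filterByExpr by group, a robust quasi-likelihood fit over 10 libraries and 4 groups (6 residual degrees of freedom, biological coefficient of variation 0.29), and diffSpliceDGE on 82149 bins of 11772 genes. limma 3.58.1 served as an alternative, as did other scaling, filters, a replicate block and left-out libraries. On simulated counts for 6 h against starved (79334 bins), 39 of 50 4-fold and 49 of 50 8-fold higher bins were recovered, as were 39 and 50 of 50 lower ones, with 6 false calls. The simulation gave all bins the same spread and changed only alternative first bins above a minimum mean count. The false calls leave out the other bins of the changed genes. These rates thus do not cover called bins with few counts, such as zip-3 and cyd-1.

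Bins named in the text are called bins in genes with a symbol and 200 or more counts in every library, without overlap between groups or with the other strand, the 10 largest rises and falls in share per comparison. The members and lists were chosen with earlier results of these data known. Symbols came from WBcel235 annotation, in which 12919 of 13117 single genes were found. Promoter sequences were not analysed here.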

Additional observations from a re-analysis of the deposited data

How the results depend on the processing

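The count of called alternative first bins (11, 11 and 26 at 1 h, 3 h and 6 h against starved) stayed within 1.5 times under RLE size factors, library totals alone, no filter on low bins, genes of 200 or more counts, limma voom diffSplice, other-strand bins left out and bins under 25 bases left out, the last added after the data were seen. It left that range in these cases, and the cause was not tested. With the barcode set as a replicate block it was 20 at 1 h, and 3 at 3 h against 1 h, where it was 0. With the compared groups alone it was 15 at 6 h and 30 at 3 h against 1 h. With barcodes 1 to 8 it was 1 at 3 h against 1 h. With a share difference of at least 2 points also required, it was 5, 7 and 11. With limma on log ratios, added after the data were seen, it was 0, 0 and 1. Leaving out each library in turn gave 3 to 14, 4 to 11 and 19 to 30, 0 to 1 at 3 h against 1 h and 0 to 0 at 6 h against 3 h. No fitted direction of a called bin turned in any alternative. As a share of the gene's alternative first bins alone, the F37C4.4 bin at 6 h turned to -7.36 percentage points. These counts do not say which bins were called. Of the 48 single calls, limma voom diffSplice lost 23, no filter lost 9, library totals alone lost 6 and the log ratio test lost 47. Barcodes 1 to 8 kept 31 and lost 14, and the compared groups alone kept 35 and lost 7. The remaining calls have no value in those 2 alternatives. The replicate block lost 4, those of pkg-2 at 1 h, catp-7 at 3 h, and tat-4 and Y41E3.7 at 6 h. The cyd-1 call held in 21 of 21 alternatives. Those of prps-1, gpcp-2, rpl-31, fib-1, noca-1, eef-1G and ZK1307.1 held in 20 of 21, with the log ratio test as the exception. Depth limits the bins with counts at or near 0 in a group, such as zip-3, cyd-1 and catp-7, for which no fitted size is given.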
